A study of Mus musculus with 6 samples.

Results

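The genes described here are the 10 mouse genes that encode the transforming growth factor beta (TGF beta) ligands (Tgfb1, Tgfb2 and Tgfb3), their receptors (Tgfbr1, Tgfbr2 and Tgfbr3) and the latent TGF beta binding proteins, or LTBPs (Ltbp1, Ltbp2, Ltbp3 and Ltbp4). The list was made by gene name, with earlier results of these data known, and all 10 were found by gene identifier among the 56953 genes of the table. Expression was measured by bulk RNA sequencing in MEFs (mouse embryonic fibroblasts, which are connective tissue cells put in culture from embryos), with 3 libraries of the label WT and 3 of the label GαqKO. The GαqKO cells are Gαq/11 knockout MEFs by the study's methods, and so lack by design the α subunits of Gq and G11, which couple receptors to phospholipase C. Both lines were a gift from the same laboratory and grew in the same serum-containing medium with no other treatment, so each genotype is represented by 1 line of cells, and line and genotype cannot be told apart. Embryonic age and strain are not given in the sources used here. Libraries are described as 3 biological replicates per genotype.

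Values are normalized counts, which are reads counted per gene divided by a scaling factor for each library. Reads on genes ranged from 9853000 to 12229175 in the 5 libraries in which they could be recovered, and normalized counts summed to between 11392429 and 11483486 in all 6. Differences between groups are log2 fold changes of normalized count + 1, GαqKO over WT, from limma over the 14096 genes that reached 10 normalized counts in 3 or more libraries, and a gene is called where its Benjamini-Hochberg adjusted p is under 0.05. Gnaq mRNA, which encodes Gαq, was not lower in the libraries labelled GαqKO, with 1691 ± 48.5 normalized counts in WT and 1926 ± 36.0 in GαqKO (SD, n = 3). Gna11, the gene of Gα11, fell from 2148 ± 29.0 to 452 ± 28.7 normalized counts. The study reports that its GαqKO MEFs lacked Gαq by Western blot and immunofluorescence, which measure protein and not the RNA counted here. Which exons the knockout removed is not given in the sources used here, and a total over the gene does not show a lost exon. GαqKO below refers to the libraries that carry this label. Of 10 fibroblast markers, 8 had at least 10 normalized counts in every library, Fap was at or under the floor of 3 counts throughout, and Thy1 was at or under it in WT only. The summed level of the fibroblast markers was 73257 to 79176 in WT and 56300 to 58772 in GαqKO. Col1a1 (log2 fold change -1.53), Col1a2 (-0.36), Vim (-0.32) and Col3a1 (-0.18) were lower, while Pdgfra rose from 19.6 to 2320 normalized counts, and Dcn (5.66), Thy1 (5.49), S100a4 (1.61) and Pdgfrb (0.23) were higher too. Summed over 5 epithelial markers the level was 255 to 285 in WT and 9.06 to 20.8 in GαqKO, nearly all of it Cdh1 (238 and 7.96), while Krt5 was at or under the floor in all libraries. Summed over 4 neural and Schwann cell markers it was 423 to 494 in WT and 111 to 128 in GαqKO, mostly Tubb3 (406 and 60.9). The summed levels of 5 endothelial, 5 blood and macrophage, 5 smooth muscle and 4 skeletal myoblast markers reached at most 120.5 normalized counts in any library. The part of these marker differences in the results below was not tested. In bulk RNA, fewer cells of a type and less RNA per cell cannot be told apart.

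TGF beta is made as a precursor that is cut but stays bound to its own propeptide, which keeps it latent. The propeptide is linked to an LTBP, and the LTBP anchors the complex to fibronectin and fibrillin fibres of the matrix, from which integrins and proteases can release the ligand. Released ligand binds the type II receptor (Tgfbr2), which phosphorylates the type I receptor (Tgfbr1), which in turn phosphorylates SMAD2 and SMAD3. The type III receptor (Tgfbr3, betaglycan) presents ligand, above all TGF beta 2, to the type II receptor. In fibroblasts this pathway is known for driving matrix production and the contractile myofibroblast state.

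Promoter sequences are shown for the ligand with the largest fall (Tgfb2), the LTBP with the largest rise (Ltbp2) and the type II receptor (Tgfbr2), the receptor with a window here that rose, since the differences below concern the transcript levels of these genes. Each run is the 250 bases before the RefSeq transcription start on build GRCm38.p6, read 5′ to 3′ on the gene's strand, and capitals mark matches to the motifs searched, on either strand. The genome positions are chr1:186705990-186706239 for Tgfb2, chr12:84876492-84876741 for Ltbp2 and chr9:116175364-116175613 for Tgfbr2, all on the minus strand.
Tgfb2: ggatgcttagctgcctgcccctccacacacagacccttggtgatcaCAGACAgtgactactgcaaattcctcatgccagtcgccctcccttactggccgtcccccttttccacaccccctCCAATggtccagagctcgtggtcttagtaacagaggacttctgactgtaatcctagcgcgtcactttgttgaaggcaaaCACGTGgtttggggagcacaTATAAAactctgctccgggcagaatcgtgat
Ltbp2: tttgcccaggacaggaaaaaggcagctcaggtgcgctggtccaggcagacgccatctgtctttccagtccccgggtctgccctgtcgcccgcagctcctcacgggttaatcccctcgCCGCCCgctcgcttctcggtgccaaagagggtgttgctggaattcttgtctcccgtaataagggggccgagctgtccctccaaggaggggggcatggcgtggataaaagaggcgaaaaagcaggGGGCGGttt
Tgfbr2: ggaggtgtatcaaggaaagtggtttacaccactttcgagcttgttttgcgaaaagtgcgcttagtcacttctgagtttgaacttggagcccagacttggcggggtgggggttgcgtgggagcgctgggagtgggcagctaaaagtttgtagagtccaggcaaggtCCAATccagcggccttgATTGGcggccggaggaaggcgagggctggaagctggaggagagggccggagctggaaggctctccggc

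Motifs were the SMAD box CAGACA, the TATA box TATAAA, the GC box GGGCGG, the E-box CACGTG, the CCAAT box, the AP-1 site TGANTCA and the CRE TGACGTCA. The Tgfb2 window held a SMAD box 204 to 199 bases before the start, a CCAAT box at 130 to 126, an E-box at 51 to 46 and a TATA box at 31 to 26. Over all 32851 windows of this length in the table, a SMAD box was in 17.1%, a CCAAT box in 33.8%, an E-box in 6.02% and a TATA box in 12.4%. Tgfb2 was the only one of the 8 members with a window whose window held this TATA box or this E-box. The Ltbp2 window held a GC box at 133 to 128 on the opposite strand and another at 9 to 4, a motif found in 32.7% of all windows. In the Tgfbr2 window there was a CCAAT box at 85 to 81 and another at 68 to 64 on the opposite strand. The share of G and C was 53.6% for Tgfb2, 61.6% for Ltbp2 and 58.4% for Tgfbr2, against a median of 52.4% over all windows. Tgfb1, whose window had no TATA box, held 5 GC boxes and 75.2% G and C. None of the 12 windows of the 8 members held the AP-1 site (6.75% of all windows), and the CRE (1.55%) was found in the window of 1 of the 2 Ltbp1 starts. These matches describe the letters in the windows, and binding was not measured. Tgfb3 and Tgfbr3 have no window here.

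Of the 10 members, all were tested, 4 were higher in GαqKO (Tgfbr2, Tgfbr3, Ltbp2 and Ltbp4), 5 were lower (Tgfb1, Tgfb2, Tgfb3, Ltbp1 and Ltbp3) and Tgfbr1 was not called. Over all genes tested, 31.8% were called higher and 34.1% lower, 65.8% in all, so a call by itself says little about a member. Past a log2 fold change of 1, the study's threshold, 10.2% of all genes were higher and 10.5% lower, 20.7% in all, and among the members the 4 higher ones and 2 of the lower ones (Tgfb2 and Tgfb3) lay past it. The median log2 fold change was -0.18 over the members and -0.01 over all genes tested. All 3 ligands were lower, no receptor was called lower, and the LTBPs divided into 2 higher and 2 lower.

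**Figure D1:**
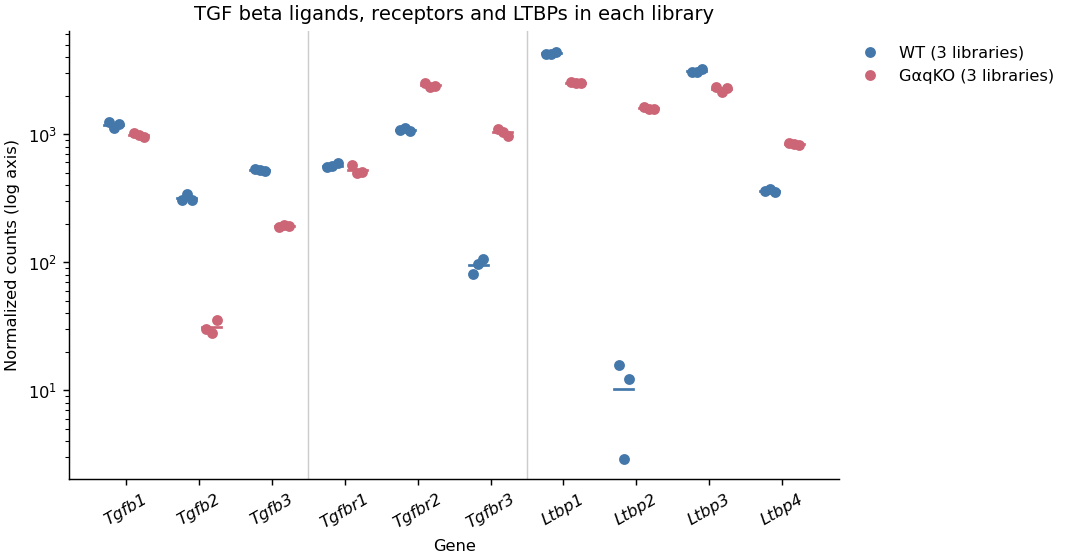
Normalized counts (log axis) of each ligand, receptor and LTBP in the 3 WT and 3 GαqKO libraries, with a point per library and a bar at each group mean. The groups overlap for Tgfbr1, and Ltbp2 goes from 2.91 to 15.7 in WT to 1575 to 1625 in GαqKO. Over all genes tested, 65.8% were called, so a difference between the groups is common in these data.

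Tgfb2, the ligand needed for heart, palate and skeletal development, fell the most of the 3 ligands. The gene (ENSMUSG00000039239.15, chr1:186354985-186438294 on GRCm39, minus strand) had 304, 340 and 306 normalized counts in the WT libraries and 30.05, 27.75 and 35.25 in the GαqKO libraries. Every GαqKO library lay far below every WT library, and the log2 fold change was -3.32 (SE 0.15, 95% interval -3.63 to -2.999, adjusted p = 1.99e-10). In the libraries with recovered reads there were 942 reads in WT and 56 in GαqKO, a ratio of 10.9 with an exact counting interval of 8.34 to 14.6, which covers counting error only. Of its 6258 exon bases, 4072 lie inside the span of Gm35546, a long noncoding RNA on the opposite strand with no shared exon, and 232 are shared with the opposite-strand Gm29491, which had at most 8.14 normalized counts in any library.

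Tgfb3, the ligand known for closure of the palate, fell by less. The gene (ENSMUSG00000021253.8, chr12:86102756-86126301, minus strand) had 536, 527 and 518 normalized counts in WT and 189, 197 and 192 in GαqKO. The libraries of each group lay within a few percent of each other and the groups were well apart (log2 fold change -1.45, SE 0.08, 95% interval -1.61 to -1.28, adjusted p = 1.22e-09). It shares 179 exon bases with the opposite-strand Ttll5, a tubulin modifying enzyme, which fell by 0.44 on the log2 scale. Libraries were made with a stranded kit, but whether the counting used strand is not stated, so reads on such shared bases cannot be assigned to a strand here.

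Tgfb1, the ligand most studied in fibrosis, had 1235, 1107 and 1192 normalized counts in WT and 1020, 977 and 952 in GαqKO. Its gene (ENSMUSG00000002603.16, chr7:25386390-25404506, plus strand) shares no exon base with another gene. The groups did not overlap, and the log2 fold change was small, at -0.26 (SE 0.06, 95% interval -0.38 to -0.14, adjusted p = 0.00102). The tested genes of chromosome 7 had a median log2 fold change of 0.18. With that median taken off, the value for Tgfb1 was -0.44.

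Tgfbr3, the coreceptor betaglycan, rose the most of the receptors. The gene (ENSMUSG00000029287.15, chr5:107249402-107437623, minus strand) ran from 80.4 to 105 normalized counts in WT and from 971 to 1087 in GαqKO, for a log2 fold change of 3.45 (SE 0.10, 95% interval 3.23 to 3.67, adjusted p = 3.67e-12). It ranked 284 among all tested genes by the size of its rise.

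Tgfbr2, the receptor that binds ligand directly and starts the signal, had 1081, 1108 and 1057 normalized counts in WT and 2528, 2338 and 2360 in GαqKO (ENSMUSG00000032440.14, chr9:115913361-116004800, minus strand). All GαqKO libraries lay well above any WT library, and the log2 fold change was 1.15 (SE 0.05, 95% interval 1.05 to 1.26, adjusted p = 1.14e-10). Tgfbr1, the kinase that carries the signal to the SMADs, had 550, 559 and 591 normalized counts in WT and 577, 498 and 510 in GαqKO (ENSMUSG00000007613.16, chr4:47353134-47414931, plus strand). Here the groups overlapped, since GαqKO replicate 1 lay above WT replicates 1 and 2. The log2 fold change of Tgfbr1 was -0.10 (SE 0.07, adjusted p = 0.217), with a 95% interval from -0.26 to 0.05, so a fall of up to 0.26 on the log2 scale was within the interval. Genes of chromosome 4 had a median log2 fold change of -0.35, the lowest of any chromosome. Relative to that median Tgfbr1 was higher, by 0.25 (adjusted p = 0.00614), so the sign of its difference depends on this reference.

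Ltbp2 showed the largest difference of all members. It binds fibrillin microfibrils and, unlike the other LTBPs, is not known to bind latent TGF beta. The gene (ENSMUSG00000002020.16, chr12:84829986-84923306, minus strand) was near the limit of detection in WT, with 15.7, 2.91 and 12.2 normalized counts, and had 1625, 1575 and 1582 in GαqKO. The WT values rest on 15, 3 and 12 reads, with exact Poisson 95% intervals of 8.40 to 24.7, 0.619 to 8.77 and 6.20 to 21.0. The log2 fold change was 7.39 (SE 0.38, 95% interval 6.57 to 8.203, adjusted p = 8.76e-10), which ranked 20 among all rises. Because of the low WT counts it moved with single libraries, to 6.75 without WT replicate 2, and to 6.82 with a pseudocount of 5. Over the libraries with recovered reads, 3092 reads in GαqKO against 30 in WT gave a ratio of 159 with an exact counting interval of 111 to 235. The overlapping opposite-strand RNA D030025P21Rik shares 764 bases, or 9.34%, of the Ltbp2 exons and had 1.04, 0 and 0 normalized counts in WT and 115, 125 and 128 in GαqKO. It rose with Ltbp2, to a far lower level, and reads on the shared bases cannot be assigned to a strand here.

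The 3 tested genes with a named symbol whose levels over the 6 libraries were most like those of Ltbp2, by the Euclidean distance between log2 values centred on each gene's mean, were Cdh6 (distance 0.82), Scara5 (0.84) and Cd200 (0.98). Each was at or under 5.09 normalized counts in every WT library and between 632 and 735 in every GαqKO library. Cdh6 is a cadherin, Scara5 a ferritin receptor and Cd200 an immune regulatory membrane protein. With 3 libraries per group the distance mainly measures the step between groups.

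Ltbp4, which is required for elastic fibre assembly, rose. Its gene (ENSMUSG00000040488.19, chr7:27004086-27037117, minus strand) had 361, 373 and 353 normalized counts in WT and 847, 844 and 826 in GαqKO. The log2 fold change was 1.21 (SE 0.06, 95% interval 1.08 to 1.34, adjusted p = 7.37e-10), or 1.03 with the chromosome 7 median taken off. Ltbp1 and Ltbp3, the LTBPs best known for binding and secreting latent TGF beta, were the most abundant LTBPs of WT cells and fell. Ltbp1 (ENSMUSG00000001870.17, chr17:75312519-75699507, plus strand) had 4233, 4241 and 4409 normalized counts in WT and 2574, 2492 and 2495 in GαqKO, a log2 fold change of -0.77 (SE 0.04, 95% interval -0.86 to -0.68, adjusted p = 1.31e-09). Ltbp3 (ENSMUSG00000024940.12, chr19:5790932-5808669, plus strand) had 3080, 3045 and 3243 in WT and 2318, 2131 and 2280 in GαqKO, a log2 fold change of -0.48 (SE 0.05, 95% interval -0.58 to -0.38, adjusted p = 8.05e-07). With the chromosome 19 median taken off, the value for Ltbp3 was -0.33. For both genes the groups were apart while the fold stayed under the study's threshold.

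**Figure D2:**
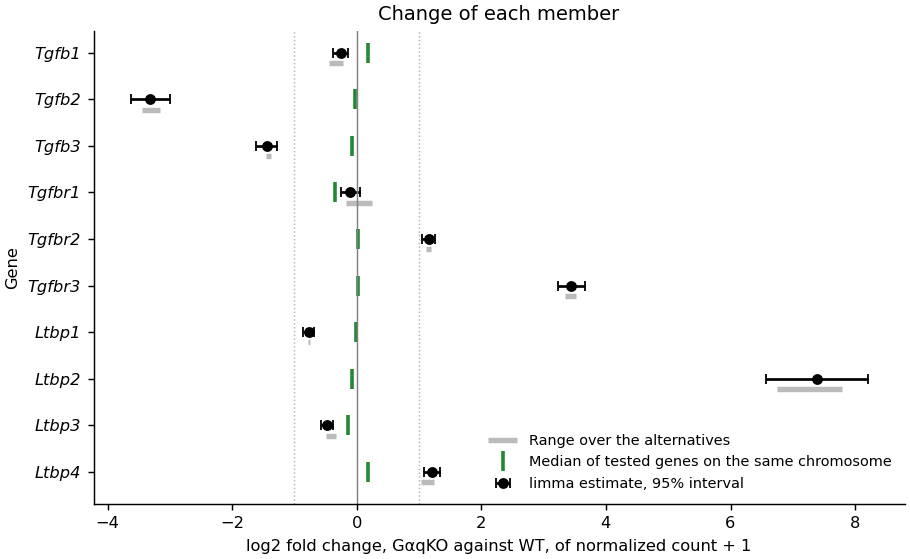
The log2 fold change (GαqKO over WT, of normalized count + 1) of each member from limma with its 95% interval (black), the range over all alternative analyses (grey) and the median of the tested genes on the same chromosome (green). Dotted lines mark 1 and -1, and the grey range crosses 0 for Tgfbr1 only.

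To compare levels between genes, normalized counts were divided by the exon length of each gene in kb. On this scale the 3 ligands summed to 383 ± 10.6 in WT and 235 ± 5.99 in GαqKO (SD, n = 3), a level 1.63 times higher in WT. The 3 receptors summed to 222 ± 4.00 and 504 ± 25.4, 2.27 times higher in GαqKO. The 4 LTBPs summed to 782 ± 19.5 and 780 ± 17.1, with a ratio of 0.997 and overlapping groups. On this scale the LTBP sum was therefore nearly equal in both groups although its parts were not. Other exon lengths and undivided counts were tried for the shares below and not for these sums. The ratio of the LTBP sum to the ligand sum went from 2.04 ± 0.07 to 3.32 ± 0.07. Both the LTBP sum and this ratio include Ltbp2, which is not known to bind latent TGF beta. Ltbp2 went from 1.25 per kb in WT to 195 in GαqKO.

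The mean makeup of each role differed between the groups. The shares within a role depend on each other, and a share can rise while the level falls, as for Tgfb1. Tgfb1 made up 60.4% ± 1.78 of ligand transcripts per kb in WT and 82.2% ± 0.78 in GαqKO, while the share of Tgfb2 was 13.2% ± 1.18 and 2.11% ± 0.30 and that of Tgfb3 26.4% ± 0.61 and 15.7% ± 0.63. Tgfbr3 went from 6.18% ± 0.72 to 29.9% ± 0.79 of receptor transcripts, Tgfbr1 from 38.5% ± 1.12 to 15.8% ± 0.52, and Tgfbr2 kept a share of 55.3% ± 1.64 and 54.3% ± 0.66. Among the LTBPs, Ltbp2 went from 0.16% ± 0.10 to 24.97% ± 0.20 and Ltbp4 from 6.15% ± 0.31 to 14.3% ± 0.34, against 51.1% ± 0.17 to 30.1% ± 0.27 for Ltbp1 and 42.6% ± 0.39 to 30.7% ± 0.79 for Ltbp3. For 9 of the 10 shares the groups did not overlap, which gives an exact permutation p of 0.1 (two-sided), the smallest that 3 against 3 libraries allow, or 0.111 after adjustment over the 10 shares. For Tgfbr2 the exact permutation p was 0.4, with a difference of -1.002 percentage points. These tests cannot reach 0.05, so no share passed a threshold.

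**Figure D3:**
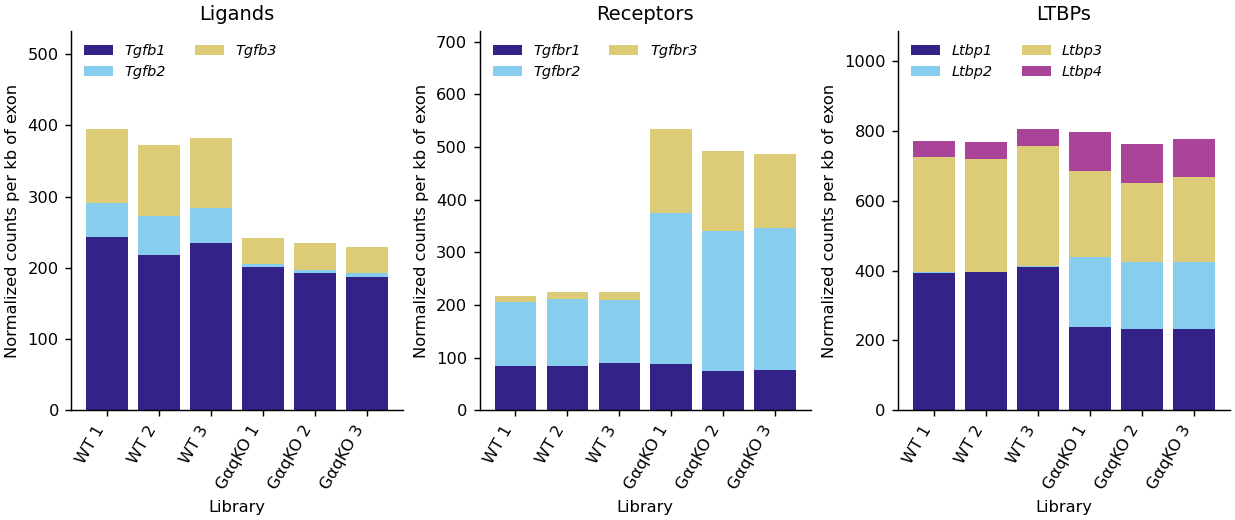
Stacked normalized counts per kb of exon of the ligands, receptors and LTBPs in each library. The ligand stacks are lower and the receptor stacks higher in the 3 GαqKO libraries, while the LTBP stacks reach 764 to 805 in all 6 with Ltbp2 visible in GαqKO only.

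Ratios within a library do not depend on the scaling factor of that library. Per kb, Tgfbr3 stood at 0.112 ± 0.016 of Tgfbr2 in WT and 0.550 ± 0.020 in GαqKO, and Tgfbr2 at 1.44 ± 0.08 and 3.44 ± 0.12 times Tgfbr1. Tgfb1 was 4.60 ± 0.52 times Tgfb2 in WT and 39.5 ± 5.44 times in GαqKO, and Tgfb3 went from 2.00 ± 0.13 to 7.53 ± 0.98 times Tgfb2. Within each of these ratios the libraries of the groups did not overlap.

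The order of levels per kb in WT was Ltbp1 (400), Ltbp3 (333), Tgfb1 (232), Tgfbr2 (123), Tgfb3 (101), Tgfbr1 (85.6), Tgfb2 (50.6), Ltbp4 (48.1), Tgfbr3 (13.8) and Ltbp2 (1.25). Only the neighbours Tgfb2 and Ltbp4 had ranges that overlapped. In GαqKO the order per kb was Tgfbr2 (274), Ltbp3 (239), Ltbp1 (235), Ltbp2 (195), Tgfb1 (193), Tgfbr3 (151), Ltbp4 (111), Tgfbr1 (79.8), Tgfb3 (36.9) and Tgfb2 (4.96). There the ranges of Ltbp3 and Ltbp1 overlapped, as did those of Ltbp2 and Tgfb1. Among all tested genes, Ltbp2 stood at the 3.43 percentile of level per kb in WT and the 80.2 percentile in GαqKO, and Tgfb2 at 47.5 and 12.6. Tgfb1 remained a highly expressed gene, at the 83.2 and 80.0 percentiles.

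The SMAD proteins carry the signal from the receptors to the nucleus. Of 16 SMAD genes and regulators, all tested, 3 (18.8%) were higher and 10 (62.5%) lower, against 31.8% and 34.1% of all genes tested, with a median log2 fold change of -0.19. With DESeq2 on the recovered reads of 5 libraries, 6 were lower. All but Smad6 stayed within a log2 fold change of 1. Smad6, an inhibitory SMAD that acts above all on BMP signals, fell from 474 ± 19.6 to 209 ± 7.43 normalized counts (log2 fold change -1.18). The SMAD corepressor Ski fell by 0.73 and the receptor signalling inhibitor Pmepa1 by 0.63 on the log2 scale. With the chromosome 4 median taken off, the value for Ski was -0.38. Smurf1 (0.52) and Smurf2 (0.27), ubiquitin ligases of SMADs and receptors, and the common partner Smad4 (0.20) rose. The receptor-activated Smad2 (log2 fold change -0.13, adjusted p = 0.0370) and Smad3 (-0.19, adjusted p = 0.00448) were slightly lower, and the inhibitory Smad7 was not called (0.09, adjusted p = 0.115), and these 3 were named outside the rule for their roles.

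Of 22 genes for processing and release of latent TGF beta, 16 were tested, and 4 (25%) were higher and 10 (62.5%) lower, against 31.8% and 34.1% of all genes tested. The median log2 fold change was -0.72, and 1 higher and 6 lower genes lay past a log2 fold change of 1, as did 10.2% and 10.5% of all genes. Itgb8, the β chain of an integrin that activates latent TGF beta, fell from 1067 ± 16.5 to 44.8 ± 10.9 normalized counts (log2 fold change -4.57, SE 0.15). Thbs1, or thrombospondin-1, which binds the propeptide, fell from 8639 ± 346 to 1244 ± 44.9 (-2.79), and the plasminogen activator Plat from 432 ± 16.3 to 127 ± 25.8 (-1.78). The gelatinase Mmp9 rose from 12.1 ± 6.57 to 235 ± 17.7 (4.32), Plau by 0.62 and the integrin chain Itgb1 by 0.60 on the log2 scale. All exon bases of Plau lie within the span of another gene. Pcsk5, Pcsk6, Itgb6, Plg and Tgm2 were too low to test. Htra1 was listed at 0 in all libraries, with all its exon bases within spans of other genes.

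Of 10 genes for microfibrils and fibres that hold latent complexes, 6 were tested, with 2 (33.3%) higher, 3 (50%) lower and a median log2 fold change of -0.12, so that the higher share was near the 31.8% of all genes. The higher genes were Fbn2, the fibrillin typical of embryonic tissue, with 7.31, 0 and 2.04 normalized counts in WT and 1816, 1909 and 1676 in GαqKO (log2 fold change 9.26, SE 0.51), and Emilin1 (0.42). The value for Fbn2 moved to 10.01 without WT replicate 1 and to 8.48 without WT replicate 2. Fibronectin (Fn1, -0.73), Fbn1 (-0.53) and Efemp2 (-0.21) were lower. With the chromosome 19 median taken off, Efemp2 was no longer called (-0.06, adjusted p = 0.331). Mfap2, Mfap5, Eln and Adamtsl2 were too low to test.

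Of 16 other TGF beta binding proteins and receptor partners, 14 were tested, with 4 (28.6%) higher, 7 (50%) lower, against 31.8% and 34.1% of all genes, and a median log2 fold change of -0.12. The small proteoglycans Dcn and Fmod, which both bind TGF beta, moved in opposite directions. Dcn (decorin) rose from 32.1 ± 3.00 to 1663 ± 53.8 normalized counts (log2 fold change 5.66) and Fmod (fibromodulin) fell from 203 ± 19.2 to 4.71 ± 1.12 (-5.18). Cd109, a coreceptor that dampens TGF beta signals, fell from 862 ± 15.9 to 153 ± 18.9 (-2.50). The neuropilins also divided, with Nrp1 at -2.49, of whose exon bases 59.1% lie within spans of other genes, and Nrp2 at 1.14. Strap, a receptor-associated protein, rose by 0.24. Acvrl1 was too low to test, and Vasn was listed at 0, with all its exon bases within spans of other genes.

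Of 22 genes known to respond to TGF beta in fibroblasts, 19 were tested, with 6 (31.6%) higher and 13 (68.4%) lower, against 31.8% and 34.1% of all genes tested. The higher share was thus that of all genes, and the median log2 fold change was -0.37, against -0.01 over all genes. Ccn2, the matricellular protein CTGF, fell from 4924 ± 492 to 674 ± 38.998 normalized counts (-2.86), and the crosslinking enzyme Lox from 8395 ± 166 to 2598 ± 124 (-1.69). Exons of other genes share 36.5% of the exon bases of Ccn2. Tgfbi, a secreted adhesion protein, rose from 9.46 ± 1.71 to 307 ± 36.5 (4.89), Postn, or periostin, from 71.2 ± 12.2 to 426 ± 28.7 (2.58) and the oxidase Nox4 from 39.7 ± 3.75 to 233 ± 4.75 (2.53). Genes known as targets of this pathway thus lay at both ends of the range. Cnn1 was too low to test, and Cdkn2b and Timp1 were listed at 0, with all their exon bases within spans of other genes. All named changes in these 5 lists were called at adjusted p under 0.05 unless a p is given. The lists were chosen with earlier results of these libraries known, so their counts are descriptions.

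**Figure D4:**
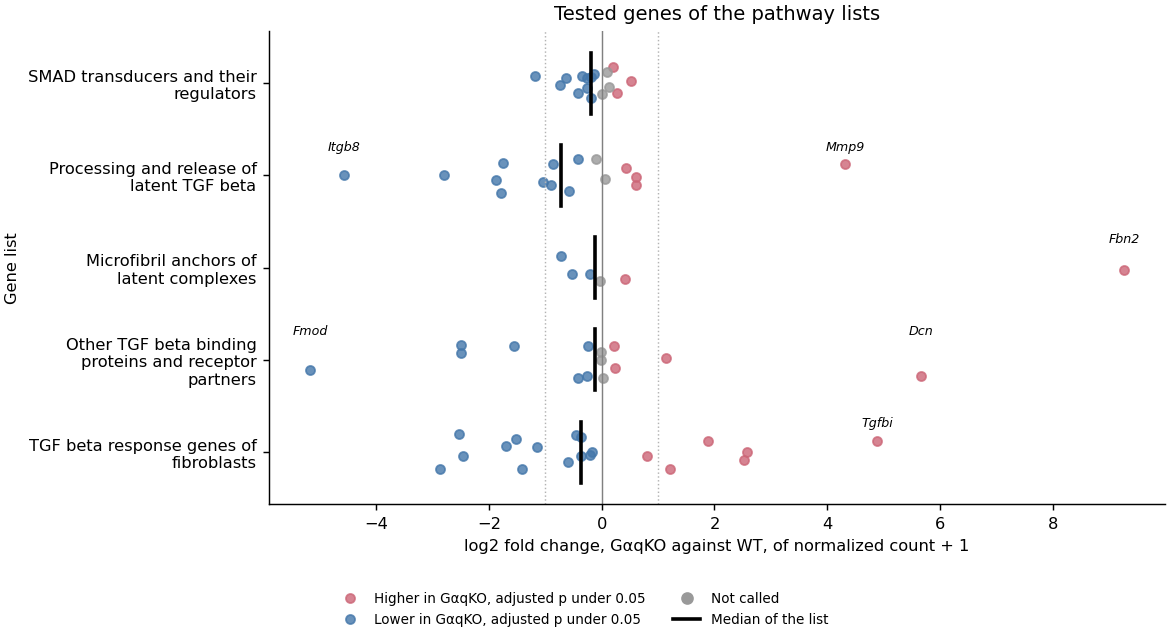
The log2 fold change (GαqKO over WT, of normalized count + 1) of each tested gene in 5 lists of TGF beta pathway genes, with a point per gene, red for higher, blue for lower and grey for no call, and a black bar at each list's median. The medians lie between -0.72 and -0.12, and called genes are found on both sides of 0 in every list.

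Neighbouring genes were examined within 1000 kb on each side of the 6 members past a log2 fold change of 1, with distances taken between transcription starts, so that overlapping genes are included. Over all genes tested, 31.8% were called higher and 34.1% lower, and whether neighbours changed together was not tested. Around Tgfb2, 1 of 7 tested neighbours was higher and 2 lower. The nearest upstream gene, Rrp15, had a log2 fold change of 0.18 (adjusted p = 0.0587), and the nearest downstream, the opposite-strand Gm35546, fell from 218 to 27.5 normalized counts (-2.95). Around Ltbp2, 7 of 38 were higher and 18 lower. D030025P21Rik, described above, overlaps the first bases of Ltbp2 on the opposite strand, its start lying 0.763 kb inside the gene, and Gm48709 upstream had a log2 fold change of 0.26 (adjusted p = 0.645).

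Around Tgfbr3, 9 of 13 tested neighbours were higher and 1 lower, against 31.8% and 34.1% of all genes tested. None of these neighbours rose by more than Tgfbr3 itself. Brdt, a testis bromodomain gene upstream, rose from 20.8 to 44.3 normalized counts (log2 fold change 1.25, adjusted p = 0.0127), and the cell cycle kinase gene Cdc7 downstream by 0.25. Around Tgfbr2 there were 2 tested genes, neither called, Gm31410 (-1.13, adjusted p = 0.1004) and Stt3b (-0.04, adjusted p = 0.408). Around Ltbp4, 14 of 34 were higher and 4 lower, with Shkbp1 (-0.18, adjusted p = 0.107) upstream and Numbl (0.36) downstream, and 3 neighbours rose by more than Ltbp4. Around Tgfb3, 3 of 23 were higher and 14 lower, 2 of them by more than Tgfb3. The overlapping Ttll5, described above, was among the lower genes. The windows of Tgfb3 and Ltbp2 overlap, so some genes, Ttll5 among them, are counted around both, and the 2 counts are not separate. The genes with the nearest start on each side, Ift43 (-0.34, adjusted p = 0.0622) and Erg28 (-0.07, adjusted p = 0.470), were not called. Tgfb2, Tgfbr2, Tgfbr3 and Ltbp2 each had no neighbour with a larger change in the same direction. This follows from the choice of members past a log2 fold change of 1 and from the size of their changes. Among all tested genes Ltbp2 ranked 20 and Tgfbr3 284 by rise, and Tgfb2 478 by fall, so few genes anywhere changed by more. For Tgfbr2 the lack of a larger neighbour rests on 2 tested genes, both with negative values.

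**Figure D5:**
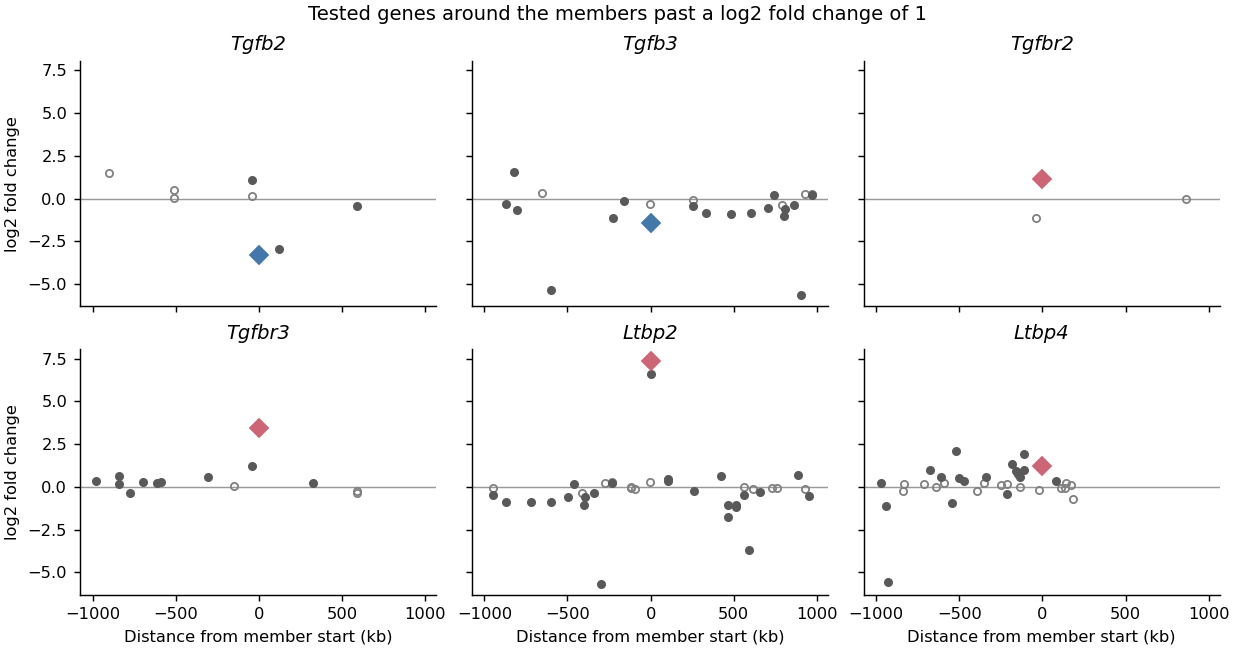
The log2 fold change (GαqKO over WT) of tested genes against their distance in kb from the start of each of 6 members, with the member as a diamond, called genes filled and genes with no call open. The diamonds of Tgfb2, Tgfbr2 (2 neighbours), Tgfbr3 and Ltbp2 lie beyond all neighbours in their direction, with the filled point of D030025P21Rik just under that of Ltbp2. The 6 members were chosen for a log2 fold change past 1.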

How the data were processed

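The authors extracted total RNA from WT and GαqKO MEFs, selected poly-A RNA, sequenced paired ends on an Illumina NovaSeq, mapped reads with Rbowtie2 (build GRCm39) and summed them over genes by featureCounts of Rsubread, using GENCODE release M32. Their versions, the strand setting and any filter on low counts are not given in the sources used here. The deposited values are a signal, namely normalized counts made by dividing gene counts by 1 factor per library. No other sample's column was in the table. Symbols, coordinates and exon lengths came from GENCODE release M39 (56310 of 56953 identifiers matched, 98.9%), and promoter windows from RefSeq on GRCm38.p6.

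Normalized counts were tested as log2(normalized count + 1) with limma 3.58.1 (trend) in R 4.3.3, over the 14096 genes that reached 10 in 3 or more libraries, and p-values were adjusted by the Benjamini-Hochberg method. Shares were tested with exact permutation tests in scipy 1.17.1. In 5 libraries 100% of nonzero values were whole multiples of a step (within 0.01), and edgeR 4.0.16 and DESeq2 1.42.0 were run on those reads as alternatives, and the reads of GαqKO replicate 3 were not used. On simulated data, limma recovered 100 of 100 genes changed 2-fold among 13572 tested, with 8 false calls, edgeR 100 among 13985 and DESeq2 97 among 14740. Changes were planted in 200 genes well above the floor in WT, with 1 spread for all genes. The simulation therefore does not cover genes with few WT counts, such as Ltbp2, or changes in most genes. The exact intervals of reads and of read ratios, and the floor (3 counts), cover counting error only. The 95% intervals of log2 fold changes come from limma and rest on the spread between libraries. No pair of libraries of a group with recovered reads was within counting noise (chi-square per gene of 2.44 to 5.50), and each was counted as 1 replicate. Other alternatives were the scaling, filter, pseudocount, exon length, prior spread, replicate block, chromosome median and each library left out.

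Named genes are the 10 members, in each related list the 3 largest called rises and falls whose mean reached 100 normalized counts and the untested genes, the 3 genes most like Ltbp2, the tested gene with the nearest start on each side of each member past a log2 fold change of 1, and Gnaq and Gna11. Overlapping genes and markers were named for the values they touch. The members and lists were chosen with earlier results of these data known. A gene named by the rule is left out of this text and not reported here.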

Additional observations from a re-analysis of the deposited data

How the results depend on the processing

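Of the members, 5 were called lower under every alternative and with each library left out. The count called higher was 4 in all of these but the chromosome median removed, where Tgfbr1 made it 5, and the filter of at least 10 normalized counts in all 6 libraries, where Ltbp2 was not tested and it was 3. Under that filter Fbn2 was not tested either, and the count of higher genes in the fibre list went from 2 to 1. The counts of lower genes went from 10 to 8 for processing and release, 7 to 5 for receptor partners and 13 to 12 for response genes. Those of higher genes went from 4 to 3 for processing and release and 6 to 5 for response genes. With DESeq2 on the recovered reads of 5 libraries, 6 SMAD genes were called lower in place of 10, and 5 receptor partners in place of 7. The cause was not tested. Some list counts also moved under other alternatives. Tgfbr1 turned from -0.10 to 0.25 with the chromosome median removed, since that median is subtracted. Leaving out 1 library gave 9 to 10 lower SMAD genes, 2 to 3 higher fibre genes and 6 to 7 lower receptor partners. No other count changed with a library left out, and between 8712 and 9113 genes were called in all against 9279. Those fits tested genes that reached 10 normalized counts in 2 or more libraries, so genes not tested in the main fit could enter. DESeq2 called 7408 and edgeR 8879. Replicate numbers are shared between groups, but same-numbered libraries did not deviate together (r = -0.05, -0.15 and -0.06 over genes), so they were not taken as pairs. With the replicate block 4 members were higher and 5 lower, and 8962 genes were called in all. At this depth Ltbp2 in WT (3 to 15 reads) is known only within its counting intervals.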
